A study of Aspergillus niger with 24 samples.

Results

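A set of 78 genes of Aspergillus niger shared a dip in transcript level, seen on day 3 in the wild type and on day 4 in a strain that expresses a lipase. The 78 genes were chosen by their group means among 11846 genes measured in mycelium. Each group mean was the mean TPM of 3 replicate libraries, where TPM gives a gene's transcripts per length as a part of the library total. The reference level m was the lowest mean of 4 groups, namely wild type (WT) days 2 and 4 and lipase strain (TLL) days 2 and 3, which are called the high groups here. A member had m of at least 10 TPM, both WT day 3 and TLL day 4 at or below m/3, both day 1 means below 4 times m, and a mean over all 24 libraries under 1000 TPM. WT day 3 and TLL day 4 are called the trough groups.

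Aspergillus niger is a filamentous fungus that grows as branching hyphae and is used to make secreted enzymes and organic acids. On an agar plate a colony holds hyphae of different ages, and its use of nutrients, its secretion and its formation of spores change as it grows. A lipase cleaves fats and oils, and making a foreign secreted protein draws on the secretory pathway of the host. Both strains had the CICC2629 background and were grown on potato dextrose agar at one stated temperature. One was labelled wild type and the other as expressing TLL, and each was sampled on days 1, 2, 3 and 4 with 3 libraries per day. Nothing in the sources used here names the promoter that drives TLL, the number of clones or the origin of the replicates. The spread behind each p-value is therefore that between libraries of a group, and it may be technical. The series states its times in hours and its libraries in days without tying them together, so the day labels are used.

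Depth is unknown, because TPM values keep no read number. Correlations across genes between replicates were 0.983 to 0.992 on days 2 to 4 and fell to 0.920 on day 1, where WT replicate 1 and TLL replicate 3 stood apart from their groups. In the deposited table the 6 columns of the trough groups stand first, ahead of all others. The files do not settle whether the day labels of these columns are right, so every day is given as labelled, and the order of trough and return rests on those labels. None of the 11846 gene IDs matched the reference table of 14404 genes, which names another strain's genes (0 matches), so the IDs carry no names or roles here and no sequence is printed. The TLL gene itself was not analysed here.

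The rule narrowed the genes in steps. At least 10 TPM in every high group was reached by 5757 genes. Of these, 262 were at or below m/3 in WT day 3 and 207 in TLL day 4. Both held for 89 genes, which were 34.0% of the WT day 3 list and 43.0% of the TLL day 4 list. These shares use the same high groups for both lists, and the rule fixes them. The day 1 condition removed 4 genes and the limit on the overall mean removed 7. All 78 members passed the filter for testing, which asked for 1 TPM in at least 3 libraries, as the rule makes certain.

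Just inside the limit on m were NRRL3_07447 at 10.2 TPM and NRRL3_01769 at 10.49 TPM, and just outside were NRRL3_08624 at 9.91 TPM and NRRL3_11040 at 9.34 TPM. For the WT day 3 limit, NRRL3_00240 (0.329 of m) and NRRL3_01756 (0.325) were the last members, and NRRL3_05091 (0.339) and NRRL3_00061 (0.348) the first genes left out. For TLL day 4 the last members were NRRL3_01756 (0.325 of m) and NRRL3_05407 (0.321), and the first left out were NRRL3_05849 (0.338) and NRRL3_01161 (0.343). The WT and TLL limits therefore passed through a continuous range of values. Against the day 1 limit, NRRL3_04649 (3.13 times m) and NRRL3_00723 (2.90) lay inside and NRRL3_02950 (4.32) and NRRL3_08537 (4.76) outside. The limit on the overall mean lay in a gap, with NRRL3_03124 (835 TPM) and NRRL3_07018 (751 TPM) inside and NRRL3_02891 (1761.5 TPM) and NRRL3_02109 (1808.7 TPM) outside.

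The members together made up 1.65% ± 0.207 of all TPM in WT day 2, 0.173% ± 0.00907 in WT day 3 and 1.82% ± 0.0100 in WT day 4 (SD, n = 3 each). In TLL they made up 2.24% ± 0.157 on day 2, 1.58% ± 0.0666 on day 3 and 0.212% ± 0.00929 on day 4 (SD, n = 3 each). The WT course therefore fell and returned within the sampled days, while the TLL course was low on the last day sampled. On day 1 the share was 0.526% ± 0.0359 in WT and 0.311% ± 0.0844 in TLL (SD, n = 3 each), between the trough and the high groups. These shares were set by the choice of members and are a description. In bulk mycelium, fewer cells that express a gene and less RNA per cell cannot be told apart.

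From day 2 on, the members' levels followed the same course. The median member stood at 74.4 TPM in WT day 2, 9.15 TPM in WT day 3 and 80.5 TPM in WT day 4. In TLL it stood at 110.0 TPM on day 2, 74.3 TPM on day 3 and 11.7 TPM on day 4. On day 1 the median member stood at 23.4 TPM in WT and at 8.89 TPM in TLL. The TLL day 1 libraries had medians of 8.435 to 10.82 TPM, within the range of the trough libraries. Every trough library had a median member level between 8.05 and 12.04 TPM, and every library of a high group between 69.6 and 111.2 TPM. The median over all genes tested lay between 15.2 and 24.1 TPM in every library, so the median member was below it in the trough groups and above it in the high groups.

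**Figure D1:**
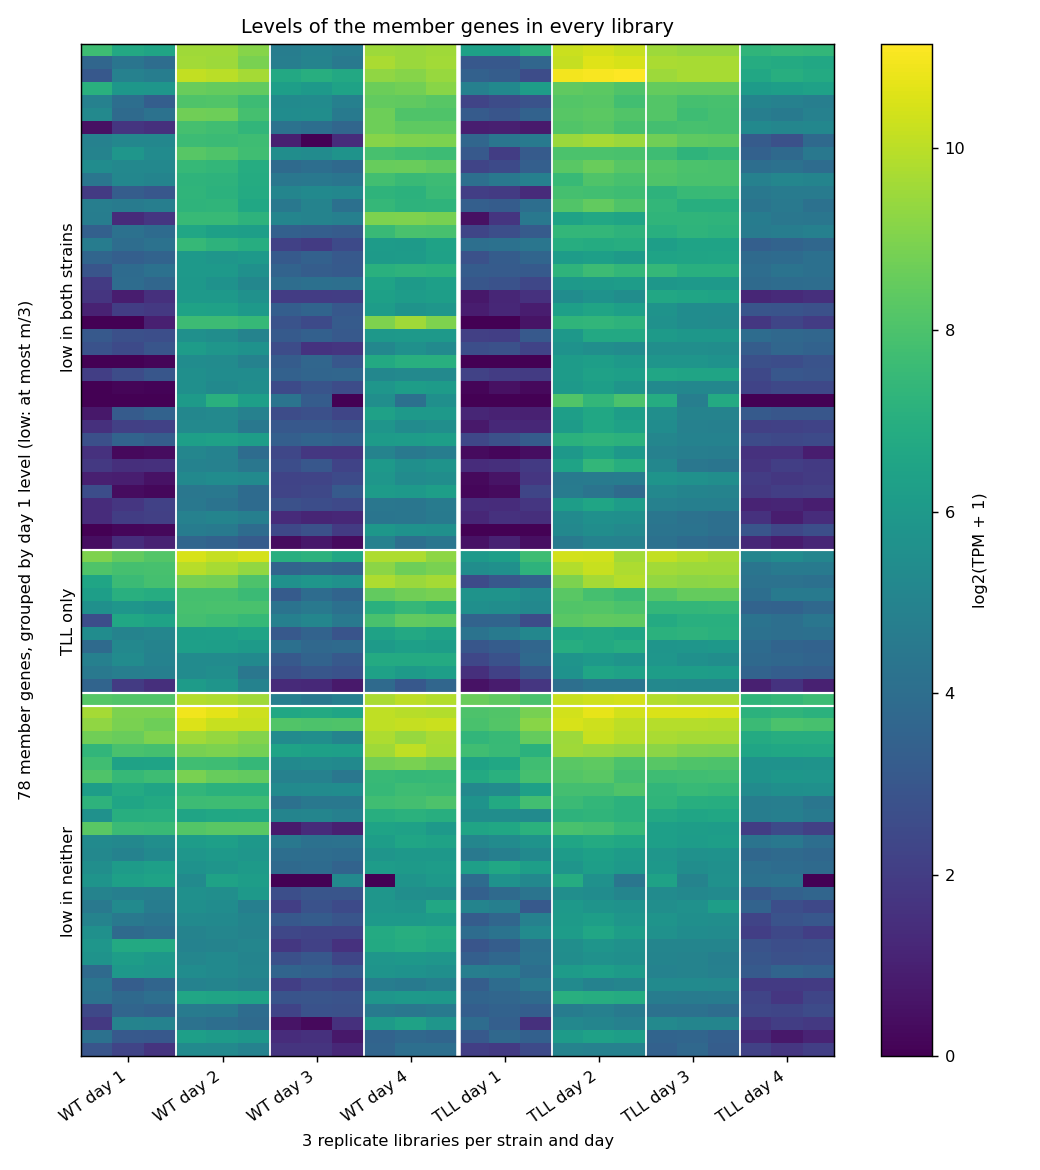
Levels of the 78 members, as log2(TPM + 1), with 1 row per gene and 1 column per library, grouped by strain and day; rows are grouped by whether the day 1 mean was at or below m/3, and the thin row between the lower blocks is the 1 gene low in WT only. The columns of WT day 3 and TLL day 4 are darker than those of the high groups in nearly all rows, and the day 1 columns are similarly dark mainly in the upper block of 39 genes.

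Members differed in depth of the trough. The ratio of m to the larger trough mean had a median of 4.62 with quartiles of 3.56 and 6.62, and 30 members had a ratio under 4. A ratio of at least 10 was reached by 6 members. The level m ranged from 10.2 to 997 TPM, with 50 members under 100 TPM. All 6 trough libraries lay below all 12 libraries of the high groups in 76 members. The same separation was found in 14.9% of all genes tested, and nothing is read from the difference because the rule used these values.

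The deepest trough belonged to NRRL3_00670. In the wild type it measured 994.06, 833.53 and 655.89 TPM on day 2, dropped to 10.7, 12.12 and 10.58 TPM on day 3, then stood at 588.02, 412.45 and 479.01 TPM on day 4. In TLL it measured 940.81, 1180.81 and 883.62 TPM on day 2, 765.68, 721.63 and 723.39 TPM on day 3, and 18.87, 22.43 and 23.44 TPM on day 4. Its m was 22.9 times the larger trough mean, with no library of a trough group near a library of a high group. NRRL3_07276 followed with a ratio of 21.8. It stood at 1.0, 0 and 1.66 TPM in WT day 3 and at 8.27, 5.85 and 12.97 TPM in TLL day 4, and at 191.09 TPM or more in every library of the high groups. The most abundant members were NRRL3_03124, with an m of 997 TPM, and NRRL3_07018, with an m of 956 TPM. Their troughs in WT day 3 were 98.96 ± 7.95 and 270.2 ± 10.2 TPM, and those in TLL day 4 were 145.6 ± 8.02 and 228.0 ± 31.9 TPM (SD, n = 3 each). The shallowest were NRRL3_00240 (ratio 3.04) and NRRL3_01756 (ratio 3.08).

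Libraries overlapped in 2 members, NRRL3_03338 and NRRL3_04725. NRRL3_03338 was listed at 0 in WT day 3 replicates 1 and 2 and at 36.6 TPM in replicate 3, and it was also at 0 in WT day 4 replicate 1 and TLL day 4 replicate 3. Its zeros therefore did not follow the groups. NRRL3_04725 measured 18.74, 8.59 and 0 TPM in WT day 3 and was listed at 0 in all libraries of day 1 and of TLL day 4. It ranged from 16.19 to 279.47 TPM in the high groups. Zeros in a table without counts may come from failed estimation, and neither gene is given a fold here.

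**Figure D2:**
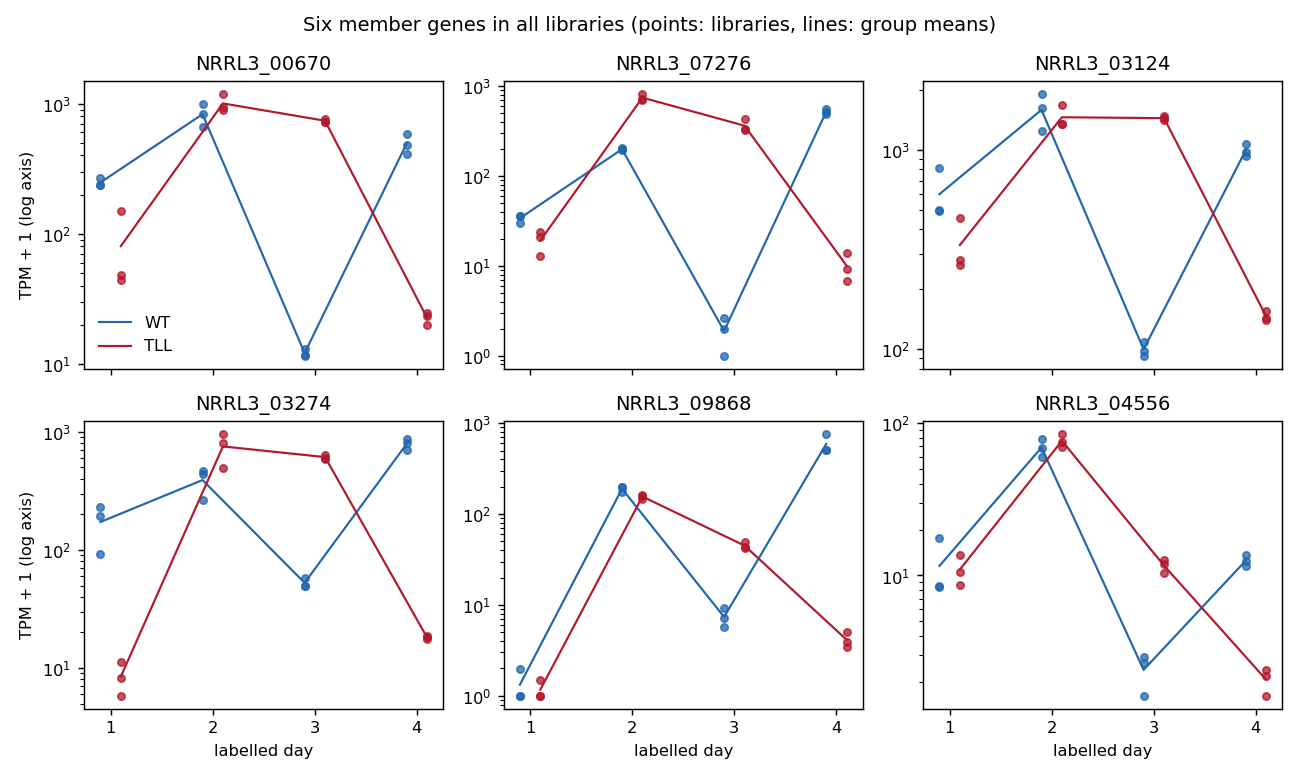
TPM + 1 on a log axis against the labelled day for 6 members named in the text, with a point per library and lines through the group means, WT in blue and TLL in red. In every panel the WT line dips at day 3 and is higher again at day 4. Its day 4 mean is below that of day 2 in NRRL3_04556, NRRL3_03124 and NRRL3_00670. In NRRL3_09868 the WT line is lower still at day 1. The TLL line is lowest after day 1 at day 4, and in every panel it is already lower at day 3 than at day 2. This step is largest in NRRL3_04556, NRRL3_09868 and NRRL3_07276 (the last with means of 741.6 and 360.9 TPM). It is smallest in NRRL3_03124 (1462.5 and 1447.9 TPM).

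The rule set only an upper bound on day 1, and the members divided there. The day 1 mean was at or below m/3 in both strains in 39 members, in TLL only in 11, in WT only in 1 and in neither strain in 27. In 20 members both day 1 means were below both trough means, so day 1 was their lowest day in each strain. An example is the neighbouring pair NRRL3_07365 and NRRL3_07366. NRRL3_07365 was at 0, 0 and 0.11 TPM in WT day 1 and at 0 in all 3 TLL day 1 libraries, against troughs of 9.15 ± 2.34 TPM (WT) and 5.69 ± 0.435 TPM (TLL; SD, n = 3 each). At the other end, 9 members reached m in WT day 1 and 2 in TLL day 1. At day 1 NRRL3_04649 averaged 231.1 ± 69.1 TPM in the wild type and 109.9 ± 26.1 TPM in the lipase strain, both above its m of 73.8 TPM, while its WT trough was 1.10 ± 0.443 TPM (SD, n = 3 each).

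Some differences were not set by the rule. For these, limma was fitted to log2(TPM + 1) of the 9558 genes past the filter. A call is a Benjamini-Hochberg adjusted p under 0.05 over all of them. The 6 differences are between the strains at day 1 and at day 2, between the high groups within each strain, between the later high groups of both strains, and between both trough groups. Each high group enters 2 of these differences, which are therefore not independent. At least 1 of the 6 was called in 65 members, and in 66.2% of all genes tested.

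At day 1 the calls among the members were all toward lower levels in TLL. The test called 25 of 78 members lower (32.1%) and 0 higher, against 5.56% lower and 1.76% higher among all genes tested. At an unadjusted limma p under 0.05, 39 members were lower and 1 was higher, against 14.1% and 9.15% of all genes tested. The median log2 difference, TLL minus WT, was -0.49 in the members and -0.02 in all genes tested, and 70 of 78 members lay below 0. Among genes with m of at least 10 TPM, 6.72% were called lower.

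NRRL3_03274 had the largest day 1 difference. It measured 91.68, 191.82 and 231.39 TPM in WT day 1 and 4.83, 7.24 and 10.31 TPM in TLL day 1, with no overlap (log2 difference -4.30, SE 0.30, limma adjusted p = 6.04e-08). NRRL3_00723 measured 57.53, 108.95 and 107.59 TPM in WT and 6.65, 8.67 and 16.79 TPM in TLL (log2 difference -3.02, SE 0.25, limma adjusted p = 3.86e-07). In both genes WT replicate 1 was the lowest WT library and TLL replicate 3 the highest TLL library. These are the libraries that stood apart on day 1.

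Without those 2 libraries 48 members were called lower and 0 higher at day 1, and the share of all genes called lower rose as well, to 21.2%. When limma was fitted to only the 6 libraries of day 1, it called 0 members, with 25 at an unadjusted p under 0.05, all lower in TLL. It called 0 of all genes tested as well, with 700 at an unadjusted p under 0.05, and the smallest limma adjusted p among the members was 0.246. The fit on all libraries shares one residual spread per gene over the groups, and day 1 had the lowest correlations between replicates.

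At day 2 more members were called higher in TLL than lower. The test called 28 members higher (35.9%) and 1 lower, against 8.22% and 1.49% of all genes tested. The median log2 difference was 0.55 in the members and 0.19 in all genes, and 59 of 78 members lay above 0. Scaling by the median of ratios moved the median of all genes to 0.02 and that of the members to 0.35, so the members stood 0.35 above all genes before and 0.33 after it. That scaling gave 17 higher and 3 lower members, against 3.33% and 2.45% of all genes tested. Quantile normalization gave 21 and 4, against 3.67% and 2.86%.

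NRRL3_01776 measured 30.13, 29.28 and 20.7 TPM in WT day 2 and 87.37, 163.89 and 126.21 TPM in TLL day 2, with no overlap (log2 difference 2.17, SE 0.26, limma adjusted p = 4.97e-05). NRRL3_06357 measured 21.11, 17.9 and 14.06 TPM in WT and 73.9, 92.92 and 70.8 TPM in TLL (log2 difference 2.11, SE 0.18, limma adjusted p = 5.6e-07). The member called lower was NRRL3_05358, at 68.94, 54.79 and 29.33 TPM in WT and 15.77, 19.42 and 18.96 TPM in TLL (log2 difference -1.37, SE 0.42, limma adjusted p = 0.0431). Its call was lost without WT replicate 1 or 2 or without any one TLL replicate, at log2 differences of -1.12 to -1.42. The call was also lost at a pseudocount of 0.1 TPM (-1.41) and with no filter (-1.37). The 29 calls of day 2 became 13 when WT replicate 3 was left out, 12 when TLL replicate 2 was, and 16 when TLL replicate 3 was. The share of all genes called higher fell in the same fits to 1.87%, 2.66% and 3.18%.

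**Figure D3:**
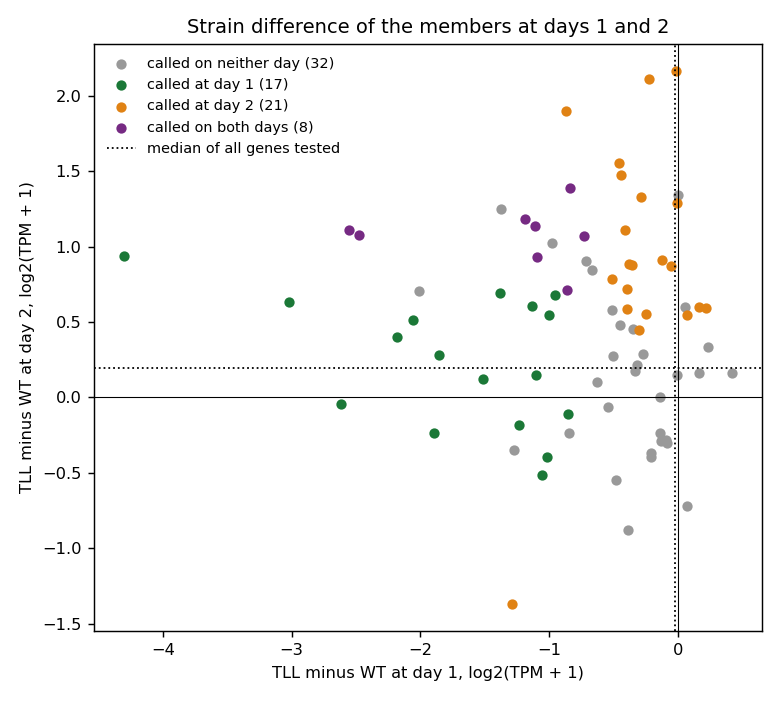
Log2 difference of TLL minus WT at day 1 (horizontal) and day 2 (vertical) for the 78 members, coloured by the days on which it was called, with dotted lines at the medians of all genes tested. Most points lie left of 0 and above 0, and the 8 members called on both days were lower in TLL at day 1 and higher at day 2.

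The change in the strain difference from day 1 to day 2 was tested as the difference between both strain differences. This test was added after the group means were seen, and a call needs no change of sign. By sign, 52 members were lower in TLL at day 1 and higher at day 2, and 8 were called so on both days. The test called 40 members (51.3%), all with a higher TLL minus WT difference at day 2, against 8.51% of all genes tested. Fitted to the libraries of days 1 and 2 alone, it called 16 members, all in that direction, against 1.25% of all genes. In the opposite direction the fit on all libraries called 0 members, with 1 at an unadjusted limma p under 0.05, against 1.03% of all genes. NRRL3_07118 was called on both days. It measured 42.3, 35.5 and 35.35 TPM in WT day 1 and 3.85, 4.69 and 9.34 TPM in TLL day 1. At day 2 it measured 177.81, 166.27 and 118.59 TPM in WT and 310.67, 381.57 and 300.82 TPM in TLL. The log2 strain difference rose by 3.66 between these days (SE 0.29, limma adjusted p = 4.24e-07).

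The genes that met every other condition but were at or below m/3 in a single trough group were set beside the members. In TLL at day 1, 17.7% of the 164 genes with a trough in WT day 3 only were called lower and 6.71% higher, and 24.1% of the 112 genes with a trough in TLL day 4 only were called lower and 0% higher. At day 2, 16.5% and 17.0% of these lists were called higher, against 35.9% of the members. Whether the lists differ from the members was not tested.

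In WT the median member was near its day 2 level again on day 4, and more members were called above that level than below it. Day 4 was higher than day 2 in 22 members (28.2%) and lower in 9 (11.5%), against 8.07% and 7.77% of all genes tested. The median log2 difference, day 4 minus day 2, was 0.26 in the members and -0.02 in all genes. NRRL3_03759 measured 17.57, 15.46 and 13.44 TPM on day 2, 0.51, 0.23 and 1.93 TPM on day 3 and 65.76, 84.29 and 57.18 TPM on day 4 (log2 difference of day 4 minus day 2 2.08, SE 0.61, limma adjusted p = 0.0248). NRRL3_01360 measured 20.66, 20.99 and 13.99 TPM on day 2 and 69.13, 65.12 and 74.7 TPM on day 4 (log2 difference 1.87, SE 0.51, limma adjusted p = 0.0151). The call of NRRL3_03759 was lost without day 2 replicate 2 or 3 or day 4 replicate 1 or 2 (log2 difference 2.08, 1.99, 2.10 and 1.93), and that of NRRL3_01360 without day 2 replicate 3 (1.69). Both calls were also lost at a pseudocount of 0.1 TPM (log2 difference 2.139 and 1.925).

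Other members returned only in part. NRRL3_04556 fell from 77.26, 67.79 and 58.9 TPM on WT day 2 to 10.58, 12.56 and 11.36 TPM on day 4 (log2 difference -2.46, SE 0.26, limma adjusted p = 8.98e-07), and stood at 1.67, 1.92 and 0.63 TPM on day 3. NRRL3_05358 averaged 51.0 ± 20.1 TPM on day 2 and 10.9 ± 3.19 TPM on day 4 (SD, n = 3 each; log2 difference -2.08, SE 0.42, limma adjusted p = 0.00137).

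In TLL some members were already lower on day 3, before the trough of day 4. Day 3 was lower than day 2 in 26 members (33.3%) and higher in 2, against 13.2% and 4.69% of all genes tested. The median log2 difference, day 3 minus day 2, was -0.43 in the members and -0.16 in all genes, and after median-of-ratios scaling it was -0.28 and -0.02. NRRL3_04556 fell from 68.04, 83.41 and 74.46 TPM to 10.91, 11.6 and 9.31 TPM (log2 difference -2.72, SE 0.26, limma adjusted p = 5.67e-07), close to its levels in WT day 4. NRRL3_01776 fell from 87.37, 163.89 and 126.21 TPM to 34.96, 20.36 and 19.12 TPM (log2 difference -2.30, SE 0.26, limma adjusted p = 3.36e-06). The members that rose were the neighbouring IDs NRRL3_11406 and NRRL3_11407. NRRL3_11407 rose from 41.92, 50.32 and 43.07 TPM to 102.41, 93.12 and 86.8 TPM (log2 difference 1.05, SE 0.20, limma adjusted p = 0.0012), and NRRL3_11406 from 23.7 ± 0.732 to 48.8 ± 4.31 TPM (SD, n = 3 each; log2 difference 1.01, SE 0.25, limma adjusted p = 0.00788). The call of NRRL3_11406 was lost at a pseudocount of 0.1 TPM (log2 difference 1.03).

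Between the later high groups, TLL day 3 was lower than WT day 4 in 13 members (16.7%) and higher in 3 (3.85%), against 5.25% and 6.56% of all genes tested. The median log2 difference was -0.32 in the members and 0.05 in all genes. NRRL3_09868 measured 506.52, 759.96 and 507.48 TPM in WT day 4 and 48.68, 42.33 and 40.93 TPM in TLL day 3 (log2 difference -3.70, SE 0.24, limma adjusted p = 1.25e-08). The WT level of NRRL3_00723 was 110.8 ± 7.92 TPM and its TLL level 32.4 ± 0.214 TPM (SD, n = 3 each; log2 difference -1.74, SE 0.25, limma adjusted p = 0.00011). On the higher side were NRRL3_05358, at 10.9 ± 3.19 and 35.2 ± 0.794 TPM (log2 difference 1.64, SE 0.42, limma adjusted p = 0.0135), and NRRL3_10250, at 36.3 ± 1.42 and 92.4 ± 2.65 TPM (SD, n = 3 each; log2 difference 1.32, SE 0.18, limma adjusted p = 8.39e-05). The call of NRRL3_05358 was lost under 2 of 17 alternatives, among them without WT day 4 replicate 2 (log2 difference 1.41).

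Over all 4 high groups, an F test with 3 degrees of freedom called differences in 52 members (66.7%), against 35.8% of all genes tested. The highest of the 4 means was a median of 2.05 times the lowest, under 2 times in 35 members and at least 4 times in 11. TLL day 2 was the highest high group in 34 members, WT day 4 in 24, WT day 2 in 13 and TLL day 3 in 7. The lowest was WT day 2 in 38 members, TLL day 3 in 23, WT day 4 in 13 and TLL day 2 in 4. These rankings used TPM without further scaling and were not counted over all genes. Among all genes tested, the median log2 difference of TLL minus WT at day 2 was 0.19. That of TLL day 3 minus TLL day 2 was -0.16. Median-of-ratios scaling moved these medians to 0.02 and -0.02.

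**Figure D4:**
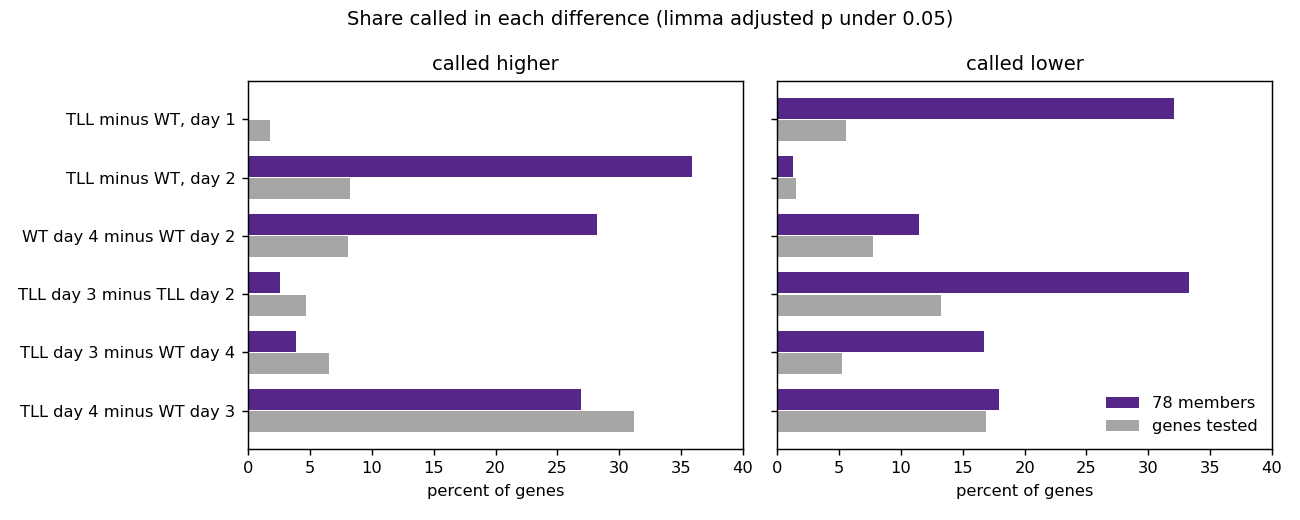
Percent of the 78 members (purple) and of the 9558 genes tested (grey) called higher (left) and lower (right) in each of the 6 differences. The members exceed all genes most in the lower calls at day 1 (32.1% against 5.56%) and the higher calls at day 2 (35.9% against 8.22%), while in the difference between both trough groups fewer members than genes overall were called higher (26.9% against 31.2%).

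Single members differed between both troughs in either direction. TLL day 4 was higher than WT day 3 in 21 members (26.9%) and lower in 14 (17.9%), against 31.2% and 16.9% of all genes tested, shares near this background. The median log2 difference was 0.03 in the members and 0.19 in all genes. Median-of-ratios scaling moved these medians to -0.16 and -0.01. It gave 18 higher and 19 lower members, against 22.8% and 24.2% of all genes tested. Quantile normalization gave 20 and 18, against 27.3% and 21.8%. The side with more calls therefore depended on the scaling, in the members and in all genes. The trough means were within 2-fold of each other in 57 members, and more than 4-fold apart in 5. Both counts leave out NRRL3_04725, whose TLL trough mean was 0.

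NRRL3_06714 stood at 26.68, 20.99 and 27.15 TPM in WT day 3 and at 154.94, 171.55 and 197.41 TPM in TLL day 4, without overlap (log2 difference 2.76, SE 0.15, limma adjusted p = 3.89e-11). NRRL3_10380 stood at 25.84, 29.87 and 25.78 TPM and at 157.95, 170.46 and 167.26 TPM (log2 difference 2.56, SE 0.24, limma adjusted p = 6.26e-08). Their lowest high means were 858.9 and 690.5 TPM. On the other side, NRRL3_02665 stood at 126.46, 143.8 and 98.26 TPM in WT day 3 and at 32.86, 40.05 and 32.45 TPM in TLL day 4 (log2 difference -1.77, SE 0.32, limma adjusted p = 0.000181). NRRL3_11511 had a WT trough of 45.1 ± 6.28 TPM and a TLL trough of 14.8 ± 5.85 TPM (SD, n = 3 each; log2 difference -1.61, SE 0.28, limma adjusted p = 0.000117).

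**Figure D5:**
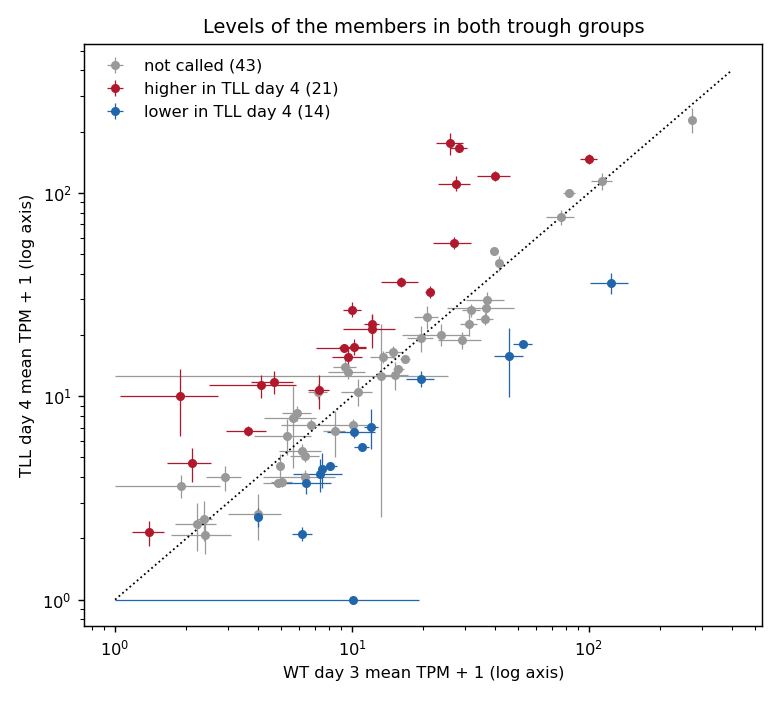
Mean TPM + 1 of each member in WT day 3 (horizontal) and TLL day 4 (vertical) on log axes, with SD bars over 3 libraries that stop at 0 TPM, coloured by the call of their difference; the dotted line marks equal levels. The 21 red members lie above the line, the 14 blue ones below it, and the remaining 43 were not called.

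Some members stood next to each other in the numbering of the gene IDs. No source used here ties this order to genome positions, and strandedness of the counting is not stated, so reads of overlapping neighbours could not be told apart. Among members there were 7 pairs of consecutive IDs, which held 14 of the 78 genes. Among the 89 genes with both troughs there were 10 runs of consecutive IDs with 22 genes, and the longest were 2 runs of 3. The runs shown here were chosen after their values were seen.

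The run NRRL3_00668 to NRRL3_00670 holds 2 members around NRRL3_00669, which is no member because its overall mean was 2223.7 TPM. NRRL3_00669 also had both troughs and stood above both members in the high groups, with 2576.3 TPM as the lowest high mean. Its troughs were 35.8 ± 4.37 TPM in WT and 53.9 ± 4.59 TPM in TLL (SD, n = 3 each). From WT day 2 to WT day 4 its mean fell from 4088.3 to 2576.3 TPM, and that of NRRL3_00670 from 827.8 to 493.2 TPM. The mean of NRRL3_00668 rose from 660.9 to 803.6 TPM. NRRL3_00668 had an m of 660.9 TPM and troughs of 39.1 ± 6.39 TPM (WT) and 119.8 ± 6.95 TPM (TLL; SD, n = 3 each). The run NRRL3_04649 to NRRL3_04651 holds 2 members around NRRL3_04650, which failed only the day 1 condition. Its WT means were 95.9 ± 9.25 TPM on day 1, 93.7 ± 13.4 TPM on day 2 and 12.97 ± 3.00 TPM on day 4 (SD, n = 3 each). All 3 genes of this run were lower in WT day 4 than in WT day 2 by their means, from 304.4 to 77.2 TPM in NRRL3_04649 and from 241.2 to 148.4 TPM in NRRL3_04651.

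The pair NRRL3_02555 and NRRL3_02556 had close levels in the troughs, and also in WT day 4 (318.8 and 335.1 TPM) and TLL day 3 (239.8 and 253.0 TPM). The gap was wider in WT day 2, with means of 354.7 and 246.0 TPM, and in TLL day 1, with 8.42 and 5.06 TPM. In WT day 3, NRRL3_02555 measured 41.54, 43.38 and 22.45 TPM and NRRL3_02556 measured 39.26, 40.57 and 28.28 TPM. In TLL day 4 they averaged 26.2 ± 2.91 and 28.9 ± 2.69 TPM (SD, n = 3 each), and m was 239.8 and 246.0 TPM. The pair NRRL3_03124 and NRRL3_03125 shared the troughs at unequal levels, with m at 997 and 174.8 TPM. Their WT day 1 means were 600.4 TPM, below m, in NRRL3_03124 and 214.8 TPM, above m, in NRRL3_03125. NRRL3_02665 follows NRRL3_02664, which is no member because of its overall mean of 3599.2 TPM and whose troughs were 627.7 ± 95.4 TPM (WT) and 427.9 ± 45.7 TPM (TLL; SD, n = 3 each).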

How the data were processed

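RNA sequencing libraries of mycelium, 3 for each of 8 groups of strain and day, were analysed from the table deposited by the authors, which holds TPM values per gene. The submitters' processing notes list HISAT2, StringTie and Cufflinks without roles or versions, and the table's name refers to RSEM. The genome build is not given in the sources used here. Columns were matched to samples by library name, and 0 columns belonged to no sample. TPM is relative to the library total, so an abundant gene that rises lowers all others.

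The 9558 genes that reached 1 TPM in 3 or more libraries were fitted with limma 3.58.1 in R 4.3.3 on log2(TPM + 1), with a mean per group over all 24 libraries, 16 residual degrees of freedom and a mean-variance trend. This scale understates changes of genes near 1 TPM. Tests were two-sided with Benjamini-Hochberg adjustment over all genes tested, and the fit was tested on simulated data. The members and all lists were chosen with earlier results of these data known. Differences that the rule used were not tested. Named IDs are the 2 largest called changes each way among members without overlap between libraries and with at least 10 TPM in the higher group (5 TPM between the troughs), the 2 extremes of m and of trough depth, and the genes nearest to each limit. For the difference between day 2 and day 1 no condition on overlap or level was set. NRRL3_03338, NRRL3_04725 and the runs of IDs were chosen after their values were seen. Lists of gene names planned for annotated IDs were not used, as 0 IDs matched. Alternatives were other pseudocounts, filters, scalings and limits, library weights, a replicate block, no mean-variance trend, fits on the compared libraries, and leaving out libraries. Figures were drawn with matplotlib 3.10.9.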

Additional observations from a re-analysis of the deposited data

Results flagged for a closer look

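The strain difference of the members differed between days 1 and 2 by a test of that difference itself. It was called in 40 of the 78 members (limma, adjusted p under 0.05), all toward a higher TLL minus WT difference at day 2. Among all genes tested, 8.51% were called in that direction and 1.03% in the other. When the libraries of days 1 and 2 were fitted alone, it was called in 16 members, against 1.25% of all genes. The largest was NRRL3_03274, whose log2 difference of TLL minus WT rose by 5.24 from day 1 to day 2 (SE 0.42, limma adjusted p = 4.24e-07), and at day 2 alone it was 0.94 (limma adjusted p = 0.0505), a difference that did not pass. NRRL3_07118 followed with a rise of 3.66. In NRRL3_03274 all 3 TLL libraries lay below all WT libraries at day 1 and above all of them at day 2. Each group held 3 libraries, too few for Dixon's test of a single value far from its group.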

How the results depend on the processing

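The number of members was 241 with troughs at or below m/2 and 48 at or below m/4. Under the other limits, both scalings and group medians it was 68 to 90, and without a single library 75 to 81. Median-of-ratios scaling kept 66 of the 78 and quantile normalization 67. Day 1 calls (25) became 0 in the fit on compared libraries alone, and those of the change from day 1 to day 2 (40) became 16. In that fit TLL day 3 minus TLL day 2 (28) became 47, with 7.83% of all genes called higher and 19.6% lower. TLL day 3 minus WT day 4 (16) became 38, with 11.3% and 9.08% of all genes. Library weights were also tried, and their estimation stopped before convergence. With them the 6 differences, in their order above, gave 55, 59, 59, 63, 48 and 56 calls, and the change gave 64. At day 1 these included 5 higher members. The shares of all genes, higher and lower, were 19.6% and 30.2%, 43.8% and 11.5%, and 23.0% and 25.1% for the first 3. For the last 3 they were 14.3% and 36.6%, 25.1% and 18.0%, and 45.9% and 26.4%. For the change they were 39.7% and 9.75%. Without WT day 1 replicate 1 and TLL day 1 replicate 3 the first 5 differences gave 48, 48, 48, 46 and 33. The shares of all genes, higher and lower, were then 4.67% and 21.2%, 24.3% and 5.06%, 15.1% and 16.1%, 8.8% and 24.3%, and 15.2% and 11.5%. A pseudocount of 0.1 TPM left 19 at day 2, with 5.65% of all genes called higher and 1.13% lower. Without a single library the first 3 differences gave 17 to 37, 12 to 27 and 23 to 30. The last 3 gave 20 to 27, 12 to 15 and 30 to 34, the F test 43 to 49 and the change 30 to 48. In the same fits 1.97% to 16.7% of all genes were called lower at day 1, and 1.87% to 11.8% higher at day 2. Called higher were 4.85% to 7.62% for WT day 4 minus WT day 2 and 25.4% to 28.0% between the troughs. Called lower were 8.65% to 12.2% for TLL day 3 minus day 2 and 2.97% to 4.11% for TLL day 3 minus WT day 4. For the change 4.66% to 19.5% were called higher. With a replicate block, day 1 kept a count of 25 and day 2 of 29; the replicate numbers do not pair the libraries, with same-number correlations of deviations from -0.65 to 0.44. Of 23 named changes, 16 stayed past the threshold under every alternative run, 7 lost it under at least 1 and 0 changed sign. Depth is unknown, so levels near 0 TPM have no counting interval.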
